A study of Homo sapiens with 2 samples.

Results

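Chromatin accessibility was examined at 10 genes that control or mark the epithelial and mesenchymal states: the transcription factors SNAI1, SNAI2, TWIST1, TWIST2, ZEB1 and ZEB2, the cadherins CDH1 and CDH2, the intermediate filament gene VIM and the epithelial adhesion gene EPCAM. They were chosen as a named set of regulators and markers from the 20136 protein-coding genes of the annotation (GENCODE 44 on GRCh37/hg19). Their peaks were those in the gene body or reaching to 3 kb or less from its transcription start site (TSS), 45 of 114060 peaks in the DMSO library and 80 of 161184 in the MAK683 library.

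G401 is an established human line from a malignant rhabdoid tumour of the kidney, a tumour type that lacks SMARCB1, a subunit of the SWI/SNF chromatin remodeller. ATAC-seq, in which the Tn5 transposase inserts adapters into open chromatin, was run on 1 culture given DMSO, the solvent, and 1 culture given MAK683 at 3 μM, both for 3 days. MAK683 inhibits PRC2, the Polycomb complex, by binding its EED subunit, and so blocks methylation of histone H3 lysine 27. With 1 library per group there was no replicate check and no test was possible. Every interval below is a 95% interval. Those of single heights and log2 differences cover counting error only. Those of medians reflect the spread among genes or regions, which are not replicates.

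Epithelial cells adhere through E-cadherin, the product of CDH1, and loss of this adhesion with a gain of N-cadherin and vimentin marks the epithelial-mesenchymal transition. SNAI and ZEB proteins are zinc-finger repressors that bind E-boxes, among them those of the CDH1 promoter, and TWIST proteins are basic helix-loop-helix factors that act in the same programme. PRC2 keeps many developmental transcription factor genes silent, and genes of these families are known targets in several cell types.

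Peak height was the number of tags over the summit per 1000000 tags after filtering (RPM). The filtered libraries held 16598348 and 18265284 tags, so 1 tag was worth 0.0602 RPM with DMSO and 0.0547 RPM with MAK683. The lowest listed peak had 6 tags in either library, and a gene with no listed peak can still have had tags below that limit. In the check of the line, SMARCB1 had 0 listed peaks in both libraries. The MAK683 library had 1.41 times as many peaks in all.

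Sequences on which the results turn are given from the GRCh37 genome, 5′ to 3′ on the strand of the gene. They show 121 bases around summits of MAK683 peaks that were absent or lower in the DMSO table, with the summit base in capitals. For ZEB2 these are the tallest peak with no DMSO counterpart (chr2:145272586-145272706, minus strand, intron 2), the tallest such peak upstream of the gene (chr2:145280843-145280963, minus strand) and the tallest between 25 and 80 kb into the gene (chr2:145206718-145206838, minus strand, intron 2). The CDH2 window (chr18:25757316-25757436, minus strand) and the TWIST1 window (chr7:19159717-19159837, minus strand) lie upstream of the TSS, at the tallest MAK683 promoter peak of each gene. Windows were taken only where they overlapped no exon of their gene, and SNAI2 was left out of this choice. None of the 5 windows held the SNAI and ZEB E-box CAGGTG or the AP-1 site TGACTCA on either strand.
ZEB2 intron 2 near: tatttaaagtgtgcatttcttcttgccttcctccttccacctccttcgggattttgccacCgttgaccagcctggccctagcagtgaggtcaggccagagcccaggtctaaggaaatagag
ZEB2 upstream: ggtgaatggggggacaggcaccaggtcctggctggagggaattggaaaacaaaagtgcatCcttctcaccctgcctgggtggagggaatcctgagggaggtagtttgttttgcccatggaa
ZEB2 intron 2 far: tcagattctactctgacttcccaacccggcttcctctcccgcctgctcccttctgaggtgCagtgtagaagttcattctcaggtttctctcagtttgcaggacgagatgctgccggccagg
CDH2 upstream: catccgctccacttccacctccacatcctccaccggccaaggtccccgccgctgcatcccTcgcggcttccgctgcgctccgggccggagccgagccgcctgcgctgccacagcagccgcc
TWIST1 upstream: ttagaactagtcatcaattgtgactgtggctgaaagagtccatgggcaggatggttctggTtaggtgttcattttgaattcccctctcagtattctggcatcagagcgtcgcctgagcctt

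ZEB2 gained most of the peaks. The gene, which encodes the zinc-finger repressor SIP1, lies at chr2:145121931-145278624 on the minus strand with its TSS at 145277686. It had 5 peaks with DMSO and 43 with MAK683, 8.6 times as many. All 5 DMSO peaks overlapped a MAK683 peak, while 39 MAK683 peaks overlapped no DMSO peak. The sequence under peaks grew from 2.23 kb to 27.0 kb.

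The gained peaks of ZEB2 ran through the gene and were low. In the MAK683 library 28 summits lay in intron 2 of the canonical transcript, against 3 in the DMSO library, and 4 lay upstream of the TSS, against 1. Another 6 MAK683 summits lay past the end of the canonical transcript, inside a longer annotated one, where DMSO had 0. Within 25 kb of the TSS there were 4 peaks with DMSO and 19 with MAK683, and farther out 1 and 24. A gap separated the cluster around the TSS from the next MAK683 peak, between 24.2 and 42.5 kb into the gene. The 39 peaks without a DMSO counterpart had 7 to 25 tags with a median of 10, and 24 of them had at least 10 tags. The tallest, shown above as the near intron 2 window, stood 5.04 kb into the gene at 25 tags, or 1.37 RPM.

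**Figure D1:**
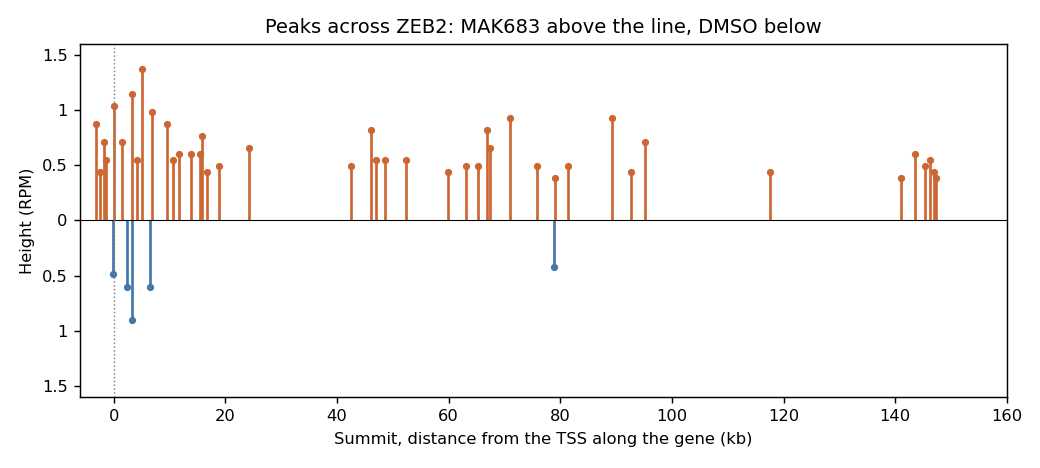
Peaks across ZEB2 by distance of the summit from the TSS in kb along the gene (x) and height in RPM (y), with MAK683 peaks drawn upward and DMSO peaks downward from the zero line. The 43 MAK683 peaks form a dense group around the TSS and spread over the gene, where DMSO had 5 peaks, 4 of them within 25 kb of the TSS.

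A gain of this size was uncommon but not unique to ZEB2. It gained 38 peaks, and 140 of the 20136 protein-coding genes gained at least as many. Among the 2091 genes as long as ZEB2 or longer, 127 gained as many and the median gain was 2. Its peak density was 3.19 per 100 kb with DMSO and 27.4 with MAK683, where genes at least as long had medians of 1.59 and 3.92. Of the 6354 genes with 5 or more DMSO peaks, 41 had a ratio as high as that of ZEB2. All of chromosome 2 had 1.66 times as many peaks with MAK683.

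At the ZEB2 promoter itself the peaks were taller too, within wide intervals. The tallest peak reaching into the 3-kb window was in intron 2 in both libraries, at 15 tags (0.904 RPM, 0.506 to 1.49) with DMSO and 21 tags (1.15 RPM, 0.712 to 1.76) with MAK683, a log2 difference of 0.35 (−0.61 to 1.30). The peak nearest to the TSS had 8 tags with DMSO and 19 with MAK683, a log2 difference of 1.11 (−0.08 to 2.30). Peaks reaching the promoter window numbered 3 and 7. The 1-kb sequence at the TSS had a G and C content of 49.4%, the lowest of the 10 genes, against a median of 61.2% over all protein-coding genes. LINC01412 and ZEB2-AS1 have their own TSSs in this window, so peaks here cannot be assigned to one of the 3 genes.

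The other 9 genes did not share the gain. Together they had 40 peaks with DMSO and 37 with MAK683, a ratio of 0.925, covering 35.6 and 34.4 kb. Of these, 15 DMSO peaks and 9 MAK683 peaks had no counterpart in the other library. Over the 10 genes, 5 had more peaks with MAK683 (SNAI2, TWIST1, ZEB2, CDH2 and EPCAM), 4 had fewer (SNAI1, TWIST2, ZEB1 and VIM) and CDH1 had 5 in each. Of all 17627 genes with a peak in either library, 36.8% had more and 42.7% had fewer. Outside the promoter windows these 9 genes had 19 peaks in each library, and ZEB2 had 2 and 36. Promoter peaks of all 10 genes numbered 24 and 25.

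**Figure D2:**
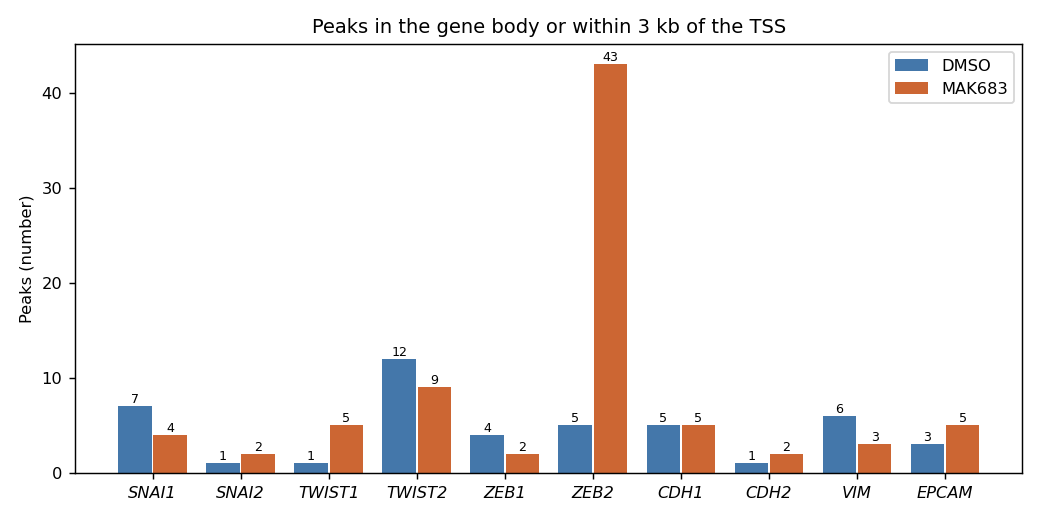
Number of peaks (y) in the gene body or within 3 kb of the TSS of each gene (x), with 1 bar per library. ZEB2 went from 5 to 43, and no other gene had more than 12 in either library.

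All 10 genes had a promoter peak in both libraries, where 72.8% of protein-coding genes had one with DMSO and 78.8% with MAK683. A promoter peak was listed with MAK683 alone in 7.88% and with DMSO alone in 1.85% of all genes. Among the 14283 genes with a promoter peak in both, height was lower in general: the median log2 difference was −0.46, and 13.5% were higher with MAK683. Of the 10 genes, 4 were higher (SNAI2, TWIST1, ZEB2 and CDH2) and 6 lower, with a median of −0.23 (−0.49 to 0.86). When heights were centred on the median of all promoters, 8 were higher and 2 lower, those 2 being SNAI1 and ZEB1.

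No single promoter change exceeded its counting error on the tallest peak. The interval of all 10 log2 differences included 0, where 0.931% of all promoters had an interval above 0 and 20.6% one below it. None of the 10 changed by 2-fold, where 1.11% of all promoters were at least 2-fold higher and 5.88% at least 2-fold lower. The 4 genes that were higher had low DMSO peaks of 7 to 17 tags, and 51.5% of the 2397 promoters in that range were higher with MAK683. EPCAM, the fifth of the 10 genes in that range, was lower. The part of that low starting height in the result was not tested.

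**Figure D3:**
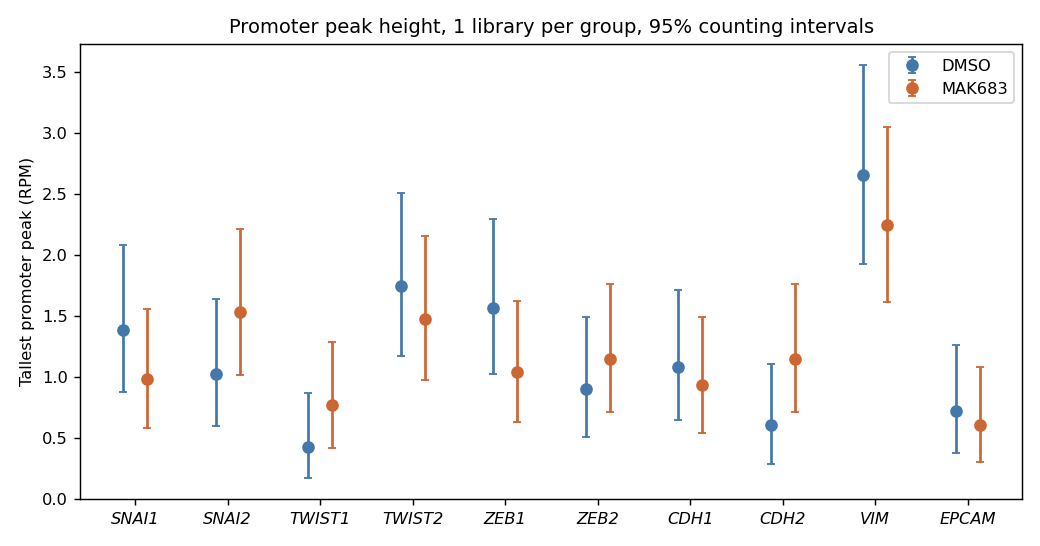
Height of the tallest peak within 3 kb of the TSS in RPM (y) for each gene (x), with 1 point per library and bars for the 95% counting interval. SNAI2, TWIST1, ZEB2 and CDH2 stood higher with MAK683 and the other 6 lower, and the bars of the libraries overlapped for every gene.

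The SNAI genes had promoter differences of opposite sign, both within counting error, and the difference between them was not tested. SNAI1, which encodes Snail (chr20:48599517-48605423, plus strand), had 23 tags (1.39 RPM, 0.878 to 2.08) with DMSO and 18 tags (0.985 RPM, 0.584 to 1.56) with MAK683, a log2 difference of −0.49 (−1.38 to 0.40). It had 7 DMSO peaks and 4 MAK683 peaks, and each MAK683 peak overlapped a DMSO one. The 3 DMSO peaks without a counterpart lay 0.955 to 3.08 kb into the gene and had 11 to 13 tags. The broad DMSO peak at the TSS, 2946 bp wide with its summit 103 bp upstream, faced a MAK683 peak over the same stretch that had its summit 633 bp upstream.

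With the peak closest to the TSS taken in place of the tallest, SNAI1 was the only gene of the 10 whose interval excluded 0. That MAK683 peak had 8 tags against the 23 of DMSO, a log2 difference of −1.66 (−2.82 to −0.50). Both MAK683 promoter peaks overlapped the one broad DMSO peak, and with the taller of them the region had the difference of −0.49 given above. One of the 7 DMSO peaks, of 22 tags, lay in a region centred 3.42 kb upstream and reached into the 3-kb window. The MAK683 peak of 19 tags in that region did not reach the window, so it is not among the 4 MAK683 peaks counted.

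SNAI2, which encodes Slug, lies on chromosome 8 at 49830157 to 49834299 on the minus strand. It had 17 tags (1.02 RPM, 0.597 to 1.64) with DMSO and 28 tags (1.53 RPM, 1.02 to 2.22) with MAK683, a log2 difference of 0.58 (−0.29 to 1.45). That placed it at the 96.3 percentile of all promoter changes, whatever their starting height. Its DMSO height was at the 17.3 percentile, and 51.5% of promoters with 7 to 17 DMSO tags were higher with MAK683. The single DMSO peak was 535 bp wide and centred 586 bp upstream of the TSS, and the MAK683 peak over it was 2582 bp wide with its summit in exon 2, 1018 bp downstream. MAK683 added a second peak of 16 tags 2717 bp upstream. A long noncoding RNA starts just upstream of SNAI2, so the upstream peaks cannot be assigned to one gene.

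The TWIST genes differed in starting height. TWIST1 (chr7:19060614-19157259, minus strand, a range that includes a long noncanonical transcript) had the lowest DMSO promoter of the 10, a single peak of 7 tags (0.422 RPM, 0.170 to 0.869) 0.896 kb into the gene. With MAK683 it had 5 peaks, of 9 to 14 tags. The tallest, shown above, stood 2.52 kb upstream at 14 tags (0.766 RPM, 0.419 to 1.29), a log2 difference of 0.86 (−0.45 to 2.17) from the DMSO peak at another place. At the region both libraries shared, the values were 7 and 13 tags, a log2 difference of 0.76 (−0.57 to 2.08). A pair of MAK683 peaks of 11 and 12 tags lay 9.16 and 10.3 kb from the TSS, past the canonical transcript.

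TWIST2 (chr2:239756673-239832230, plus strand) had 29 tags (1.75 RPM, 1.17 to 2.51) with DMSO and 27 tags (1.48 RPM, 0.974 to 2.15) with MAK683, a log2 difference of −0.24 (−0.997 to 0.52). It had 12 DMSO peaks and 9 MAK683 peaks. All 9 overlapped a DMSO peak, while 6 of the DMSO peaks had no MAK683 counterpart. Its highest value was in the body of intron 1, where a DMSO peak 6270 bp wide with 22 tags faced 5 separate MAK683 peaks, the tallest of 33 tags at 16.3 kb. That shared region had a log2 difference of 0.45 (−0.33 to 1.23), also within counting error.

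ZEB1 encodes the repressor most like ZEB2 and lies at chr10:31607424-31818742 on the plus strand. It had 26 tags (1.57 RPM, 1.02 to 2.30) with DMSO and 19 tags (1.04 RPM, 0.626 to 1.62) with MAK683, a log2 difference of −0.59 (−1.44 to 0.26), the lowest of the 10. Its peaks went from 4 to 2 in number. A peak in intron 1, 1.63 kb from the TSS, was joined to the promoter peak with MAK683. A DMSO peak of 11 tags in intron 2 had no counterpart. The gene is 211 kb long, longer than ZEB2 at 157 kb, yet its body held 0 MAK683 peaks beyond 3 kb from the TSS. ZEB1-AS1 starts inside the promoter peak, which cannot be assigned to one of the pair.

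Both cadherin promoters stayed within counting error. CDH1, which encodes E-cadherin (chr16:68771195-68869440, plus strand), had 18 tags (1.08 RPM, 0.643 to 1.71) with DMSO and 17 tags (0.931 RPM, 0.542 to 1.49) with MAK683, a log2 difference of −0.22 (−1.18 to 0.74). These tallest peaks lay in intron 2, 1.37 and 1.13 kb into the gene. The smaller peak at the TSS had 10 tags with DMSO and 13 with MAK683, a log2 difference of 0.24 (−0.95 to 1.43). The direction for CDH1 therefore depended on which promoter peak was taken. A DMSO peak of 12 tags 63.1 kb from the TSS and a MAK683 peak of 9 tags 5.70 kb from it, both in intron 2, had no counterpart.

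CDH2, which encodes N-cadherin (chr18:25512843-25757910, minus strand), had the largest log2 difference of the 10 on the tallest peak. The values were 10 tags (0.602 RPM, 0.289 to 1.11) with DMSO and 21 tags (1.15 RPM, 0.712 to 1.76) with MAK683. The difference was 0.93 (−0.15 to 2.02), at the 98.6 percentile of all promoters, whatever their starting height. The DMSO height of CDH2 was at the 4.54 percentile, and 51.5% of promoters with 7 to 17 DMSO tags were higher with MAK683. The CDH2 peak widened from 899 bp to 1789 bp and its summit stayed upstream of the TSS, at 348 and 282 bp. MAK683 added a peak of 8 tags in intron 1, 0.735 kb into the gene. The rest of the 245-kb gene had 0 peaks in both libraries. Its 1-kb TSS sequence had the highest G and C content of the 10, 73.3%.

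VIM and EPCAM had promoter differences within counting error, with a wide interval for EPCAM. VIM, which encodes vimentin (chr10:17270240-17279592, plus strand), had the tallest promoter of the 10 in both libraries, 44 tags (2.65 RPM, 1.93 to 3.56) with DMSO and 41 tags (2.24 RPM, 1.61 to 3.05) with MAK683, a log2 difference of −0.24 (−0.85 to 0.37). Its peaks went from 6 to 3 in number. VIM-AS1 starts inside the promoter peak. The 4 DMSO peaks in the 3′ portion of the gene, of 8 to 11 tags, faced 1 MAK683 peak of 10 tags.

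EPCAM, which encodes the epithelial cell adhesion molecule (chr2:47572297-47614740, plus strand), had 12 tags (0.723 RPM, 0.374 to 1.26) with DMSO and 11 tags (0.602 RPM, 0.301 to 1.08) with MAK683, a log2 difference of −0.26 (−1.44 to 0.92). Its taller peak lay 23.8 kb upstream of the canonical TSS, at the start of a longer annotated transcript. It had 31 tags under DMSO and 20 under MAK683, a log2 difference of −0.77 (−1.58 to 0.04). EPCAM-DT starts inside this peak, which cannot be assigned to one of the pair. MAK683 added 2 peaks of 10 and 11 tags, 1 in intron 1 and 1 between these starts.

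**Figure D4:**
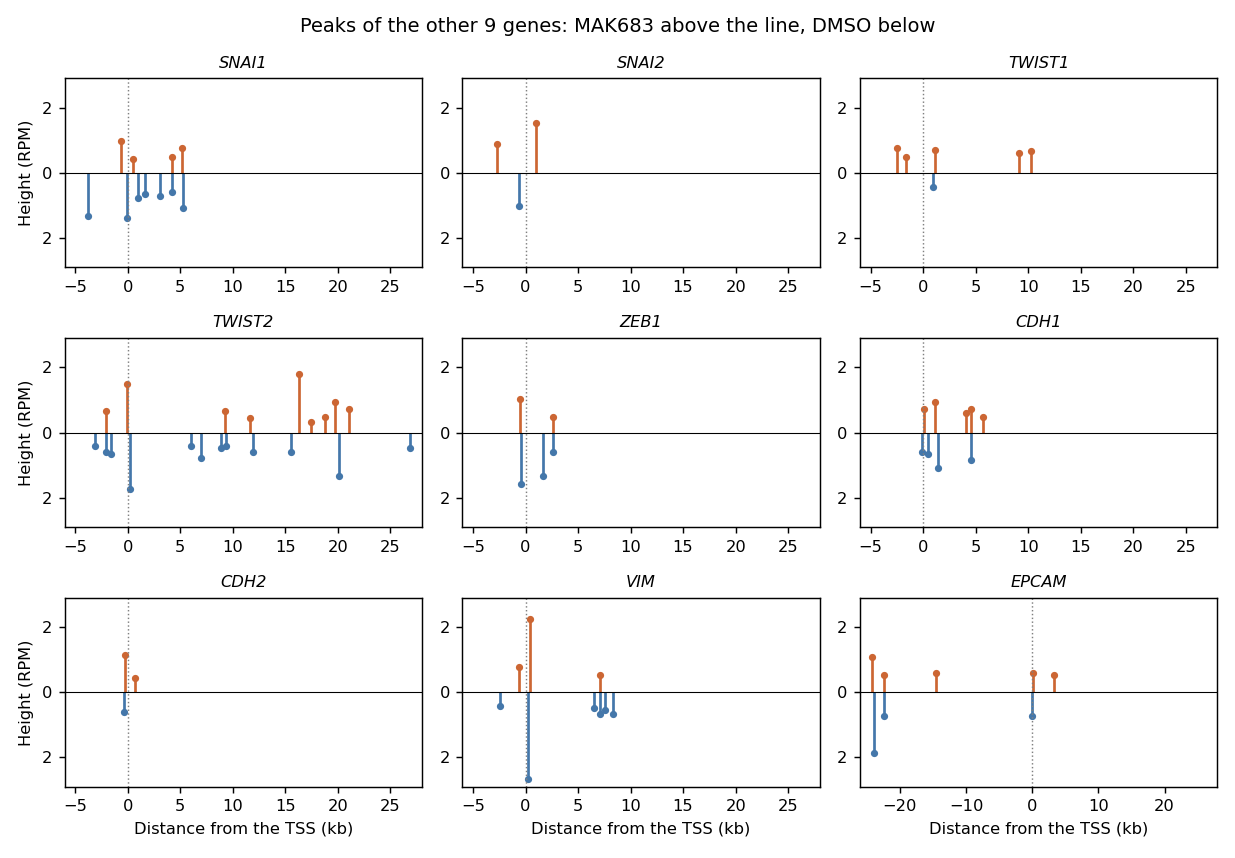
Peaks of the 9 genes other than ZEB2 by distance of the summit from the TSS in kb (x) and height in RPM (y), MAK683 upward and DMSO downward, with 2 DMSO peaks beyond 28 kb not drawn. TWIST1 and SNAI2 show MAK683 peaks more than 1 kb upstream of the TSS where DMSO had 0. SNAI1, TWIST2 and VIM show DMSO peaks in the gene body that had no MAK683 counterpart.

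Over the whole set, 26 regions had a peak in both libraries, 15 in the DMSO library alone and 48 in the MAK683 library alone. Among the 26 shared regions, 9 were higher and 17 lower with MAK683, and the median log2 difference was −0.24 (−0.29 to 0.35), against −0.33 over all 57983 shared regions. Of the DMSO peaks 66.7% overlapped a MAK683 peak and of the MAK683 peaks 40% overlapped a DMSO peak, where the values over all peaks were 56.2% and 43.2%.

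The E-box was counted as a description of sequence only. It occurred in the window from 250 bases before to 50 bases after the TSS of 4 of the 10 genes, 3 times each in ZEB1, CDH1 and EPCAM and once in SNAI1, and in 20.5% of all 20136 such windows. Within 201 bases centred on the summit it was found in 1 of the 43 MAK683 peaks of ZEB2, in 9 of the 37 MAK683 peaks of the other 9 genes and in 18.6% of all MAK683 peaks. The AP-1 site was found in 1 of the 43, in 2 of the 37 and in 3.62% of all MAK683 peaks. The ZEB2 summits had a median G and C content of 45.3%, against 57.2% for the other 9 genes and 51.2% for all MAK683 peaks, and E-box counts were not adjusted for it.

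Genes of the wider programme were read from lists of textbook markers. Of 24 mesenchymal genes, 16 had a promoter peak with DMSO and 23 with MAK683, beside 72.8% and 78.8% of all protein-coding genes. The 7 listed with MAK683 alone were the cadherin genes CDH11 and CDH6, the smooth muscle actin gene ACTA2, the matrix genes TGFBI and DCN, the hyaluronan receptor gene CD44 and the transcription factor gene PRRX1. Their peaks had 8 to 19 tags. The count was 6 when only peaks of −log10 q 5 or more were used, but these were not all the same genes. CDH11 and CD44, with 8 tags each, fell below that limit. LUM entered because its DMSO peak of 8 tags fell below the limit while its MAK683 peak of 14 tags did not. Over all genes 7.88% had a promoter peak with MAK683 alone without that filter, and no share over all genes was taken with it. POSTN had a promoter peak in neither library.

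Of the 16 mesenchymal promoters with a peak in both libraries, 5 were higher and 11 lower, with a median log2 difference of −0.25. Over all promoters 13.5% were higher and the median was −0.46, so lower heights were the general direction of these libraries. The fibronectin gene FN1 went from 12 to 26 tags, a log2 difference of 0.98 (−0.01 to 1.96), and NT5E, which encodes CD73, went from 22 to 39 tags, 0.69 (−0.07 to 1.44). THY1, which encodes CD90, went from 31 to 15 tags, a log2 difference of −1.19 (−2.07 to −0.30), and the integrin gene ITGA5 from 28 to 18 tags, −0.78 (−1.63 to 0.08). Only the interval of THY1 excluded 0.

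Of 24 epithelial genes, 16 had a promoter peak with DMSO and 13 with MAK683, against the same 72.8% and 78.8% of all genes. Over all genes 1.85% had one with DMSO alone and 7.88% with MAK683 alone. CLDN3, CLDN4 and CLDN7, which encode tight-junction claudins, and RAB25, which encodes a small GTPase of epithelial cells, had one with DMSO alone, of 8 to 16 tags. SPINT1, a protease inhibitor gene, had one with MAK683 alone, of 19 tags. The DMSO-alone count was 1 under the stricter q filter, for which no share over all genes was taken. In the 12 genes with both, 4 were higher and 8 lower, with a median of −0.21, where 13.5% of all promoters were higher and their median was −0.46.

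The largest epithelial changes were of both signs. LSR, a tricellular junction gene, went from 45 to 24 tags, a log2 difference of −1.04 (−1.76 to −0.33), and GRHL1 from 29 to 18 tags, −0.83 (−1.67 to 0.02). The zinc-finger gene OVOL2 went from 11 to 22 tags, 0.86 (−0.18 to 1.91), and ELF3 from 16 to 23 tags, 0.39 (−0.54 to 1.31).

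All 6 catenins and partners had a promoter peak in both libraries and all 6 were lower with MAK683, with a median of −0.46, equal to that of all promoters. Under the stricter q filter 1 of them had a promoter peak with DMSO alone. Of 14 other cadherin genes, 5 had a promoter peak with DMSO and 8 with MAK683, beside 72.8% and 78.8% of all protein-coding genes. The 3 with MAK683 alone were CDH5, which encodes VE-cadherin, CDH8 and CDH12, of 8 to 14 tags. Without the stricter q filter, 7.88% of all genes had a promoter peak with MAK683 alone. The count for these cadherin genes was 2 under that filter, for which no share over all genes was taken. Of the 14 genes, 6 had a promoter peak in neither library.

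**Figure D5:**
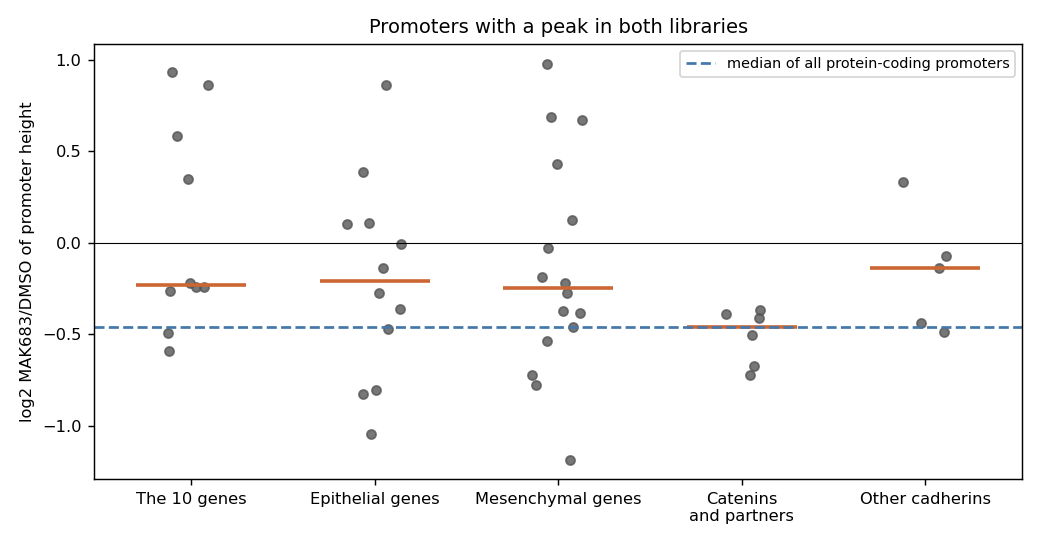
Log2 ratio of MAK683 to DMSO promoter height (y) for the 10 genes and 4 related lists (x), 1 point per gene with a promoter peak in both libraries, orange bars for list medians and a dashed line for the median of all protein-coding promoters. The 10 genes had a median of −0.23 and the catenins and partners a median on the dashed line at −0.46.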

How the data were processed

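ATAC-seq peak tables of 1 DMSO and 1 MAK683 library of G401 cells were used, with groups taken from the labels. Bowtie2 had aligned paired reads of 150 bp to hg19, per the labels and the methods of the study. The authors then called peaks separately in each library with MACS version 2.1.1.20160309, per the file headers (the submitters' processing notes name MACS2 2.1.0 and 2.2.7.1), with a tag shift of -100 bp, an extension to 200 bp, no control, no local background, 1 tag per position and a q-value cutoff of 0.05. Alignments were read as single ends, so tags are reads. Without local background, coverage that varied along the genome was not corrected for.

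The deposited pileup is a signal that counts whole tags at the summit with no depth scaling. Fold enrichment, also deposited, is a ratio to one genome-wide background level. The −log10 scores of the p-value and q-value, as deposited, depend on depth. Here pileup was divided by the tags after filtering (16598348 and 18265284 of 23901891 and 26692938) and given per 1000000 tags. Peaks outside chromosomes 1 to 22, X and Y were left out. Each gene had 1 TSS, that of its canonical transcript in GENCODE 44 lifted to GRCh37, and promoter height was that of the tallest peak reaching within 3 kb of it. An overlap of 1 bp made peaks shared. Heights have exact Clopper-Pearson intervals, log2 ratios have intervals from the Poisson error of both peaks, and medians have order-statistic intervals, all at 95%. Without molecular identifiers a molecule can be read more than once, so intervals of heights and log2 ratios cover counting error only. Intervals of medians reflect the spread among genes or regions, which are not replicates. The interval code was tested on simulated data. Sequences were read from the GRCh37 genome, in which the files' coordinates are given. Python 3.11.15, numpy 2.4.6, scipy 1.17.1, pandas 2.3.3 and matplotlib 3.10.9 were used.

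All 10 genes were named. From each related list the text names at most 2 genes with the largest rise and 2 with the largest fall among those with at least 10 tags in both libraries. Genes with a promoter peak in 1 library alone are named too. POSTN, LUM and GRHL2 were named outside this rule, after their values were seen. The genes and lists were chosen with earlier results of these data known. Alternatives were stricter q filters, other rules of overlap, another TSS window and set of TSSs, other height measures and scales, and, added after seeing the data, the genes without ZEB2 and the lists under a stricter q filter.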

Additional observations from a re-analysis of the deposited data

How the results depend on the processing

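Of 156 alternative values, 134 stayed within the limits set for a change and 22 moved. Of all these, 7 changed sign, each of them a log2 difference whose main interval included 0: CDH1 (0.24) and the median of the 10 promoters (0.00, with 5 higher) with the peak closest to the TSS, and that median (0.23) and TWIST2 (0.22), CDH1 (0.24), VIM (0.22) and EPCAM (0.20) after centring on all promoters. When only peaks of −log10 q 5 or more were used, the MAK683 peaks of the 10 genes numbered 45, of which 25 were without a DMSO counterpart, and ZEB2 had 3 DMSO peaks and 20 MAK683 peaks, 18 of them without a counterpart. With 10 or more, the genes had 12 DMSO and 19 MAK683 peaks, with 1 and 9 without a counterpart, and ZEB2 had 1 and 8, with 7 of the latter without one. Of the 10 genes, 9 had a promoter peak with DMSO and 10 with MAK683 at 5 or more, and 7 and 8 at 10 or more. These filters keep fewer peaks by construction. Conversely, a log2 difference counted as staying when it lay inside its main interval. Those intervals were wide, so a change of scale alone could hardly move a value. DMSO peaks without a counterpart numbered 25 when 50% of each peak had to overlap and 35 when summits had to lie within 150 bp. Without ZEB2, a choice made after seeing the data, MAK683 peaks numbered 37, of which 9 had no counterpart. Sums over promoter peaks are not given, since they move with how many peaks were called. Depth limited single promoters of the 10 genes to 7 to 44 tags. No paired analysis was possible because each group had 1 library.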

Other observations

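The 500 kb on either side of the genes were counted too. The flank downstream of SNAI2 had 2 peaks with DMSO and 66 with MAK683. Of 40272 flanks of all protein-coding genes, 1.79% gained as many, and the median gain was 0. The MAK683 peaks there had a median of 9 tags, and the upstream flank of SNAI2 had 1 peak in each library. The upstream flank of ZEB2 had 0 and 24 peaks and its downstream flank 2 and 9, gains reached by 15.8% and 35.8% of all flanks. For TWIST1 the counts were 0 and 4 upstream and 2 and 11 downstream, gains reached by 41.8% and 32.2%. Both flanks of CDH2 had 0 peaks in either library.

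Of the flanks of the 10 genes, 11 had at least 10 DMSO peaks, and 9 of these had fewer with MAK683, where 58.6% of the 30011 such flanks of all genes had fewer. SNAI1 had 42 and 25 peaks upstream and 90 and 60 downstream, CDH1 had 33 and 29 upstream and 35 and 21 downstream, and EPCAM had 64 and 52 upstream and 30 and 19 downstream. VIM had 20 and 17 upstream and 25 and 22 downstream, and ZEB1 had 20 and 17 downstream. TWIST2 had more with MAK683, 17 and 26 upstream and 16 and 18 downstream. Outside promoters, GRHL2, which encodes an epithelial transcription factor, had 2 peaks with DMSO and 16 with MAK683 and a promoter peak in neither library. Of all 20136 protein-coding genes, 1115 gained at least 10 peaks and 447 lost at least 10. Other genes of the related lists gained more peaks than GRHL2, and some lost peaks.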
